A study of Mus musculus with 12 samples.

Results

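The genes described here are those of hepcidin and of iron handling in the liver of suckling mice: *Hamp*, *Hamp2*, *Hfe*, *Tfr2*, *Trf*, *Slc40a1*, *Bmp6*, *Tmprss6*, *Fth1* and *Cp*. They were listed by symbol for their roles in iron balance, and all 10 were measured, each by 1 probe set that names it alone, out of 19938 genes read in this way. RNA of whole liver was hybridized to Affymetrix mouse gene arrays, 1 array per pup at postnatal day 2 (P2), from 6 *Ppara*-/- and 6 *Ppara*+/+ pups with 3 males and 3 females each. *Ppara*-/- pups lack PPARα, the nuclear receptor that drives fatty acid catabolism in hepatocytes, in every tissue from conception, and both genotypes were born to *Ppara*+/- parents, untreated, in litters kept to a similar size. The labels give the strain as SV129 and the methods of the study give a C57BL/6 background. The methods draw the RNA of each genotype from 3 litters, but no label ties a pup to its litter, so the p-values measure the variation from pup to pup with no term for litter.

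Hepcidin, the product of *Hamp*, is a peptide hormone of hepatocytes that binds the iron exporter ferroportin and sends it for degradation, so that iron stays in stores and does not enter the plasma. Its transcription is driven by BMP ligands from liver endothelium, which act through BMP receptors, the coreceptor hemojuvelin and SMAD proteins, and by IL-6 through STAT3. The liver senses plasma iron through HFE and transferrin receptor 2, holds it in ferritin, and secretes the carrier transferrin and the ferroxidase ceruloplasmin. In the newborn the same organ still hosts red cell production, which takes up much of the iron.

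The signals are log2 values from the robust multi-array average (RMA), the medians of the arrays lay between 7.16 and 7.20, and any pair of arrays correlated at 0.989 to 0.996. *Ppara* itself read 10.21 to 10.33 in the 6 *Ppara*-/- livers and 10.98 to 11.27 in the 6 *Ppara*+/+ livers, so no pup's signal conflicted with its label. All 10 measured hepatocyte markers of 11 listed, *Alb* and *Ttr* among them, had mean signals above every array median. The array of *Ppara*+/+ replicate 7 stood apart in its cell type markers, described with those markers. The counts of iron genes and markers that passed were also taken without it.

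None of the 10 genes passed the test between genotypes at P2, which was limma with sex as a covariate and an adjusted p under 0.05 over all probe sets. Over all genes 1.99% were higher and 1.12% lower in *Ppara*-/- livers by this rule, 3.11% in all. All 10 log2 differences were above 0, as were 45.1% of those of all genes, and their median was 0.0959 against -0.0104 over all genes. At an unadjusted p under 0.05 there were 6 of the 10 higher and 0 lower in limma, where 9.27% of all genes were higher and 7.89% lower. After adjustment an exact Mann-Whitney test called 0 of the 10, and 0 of all genes. *Tmprss6* came closest to the threshold (adjusted p = 0.0567), and *Hamp* had the largest difference of the 10 and also the largest spread. The plot of signals by genotype shows how far the groups overlap for each gene.

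**Figure D1:**
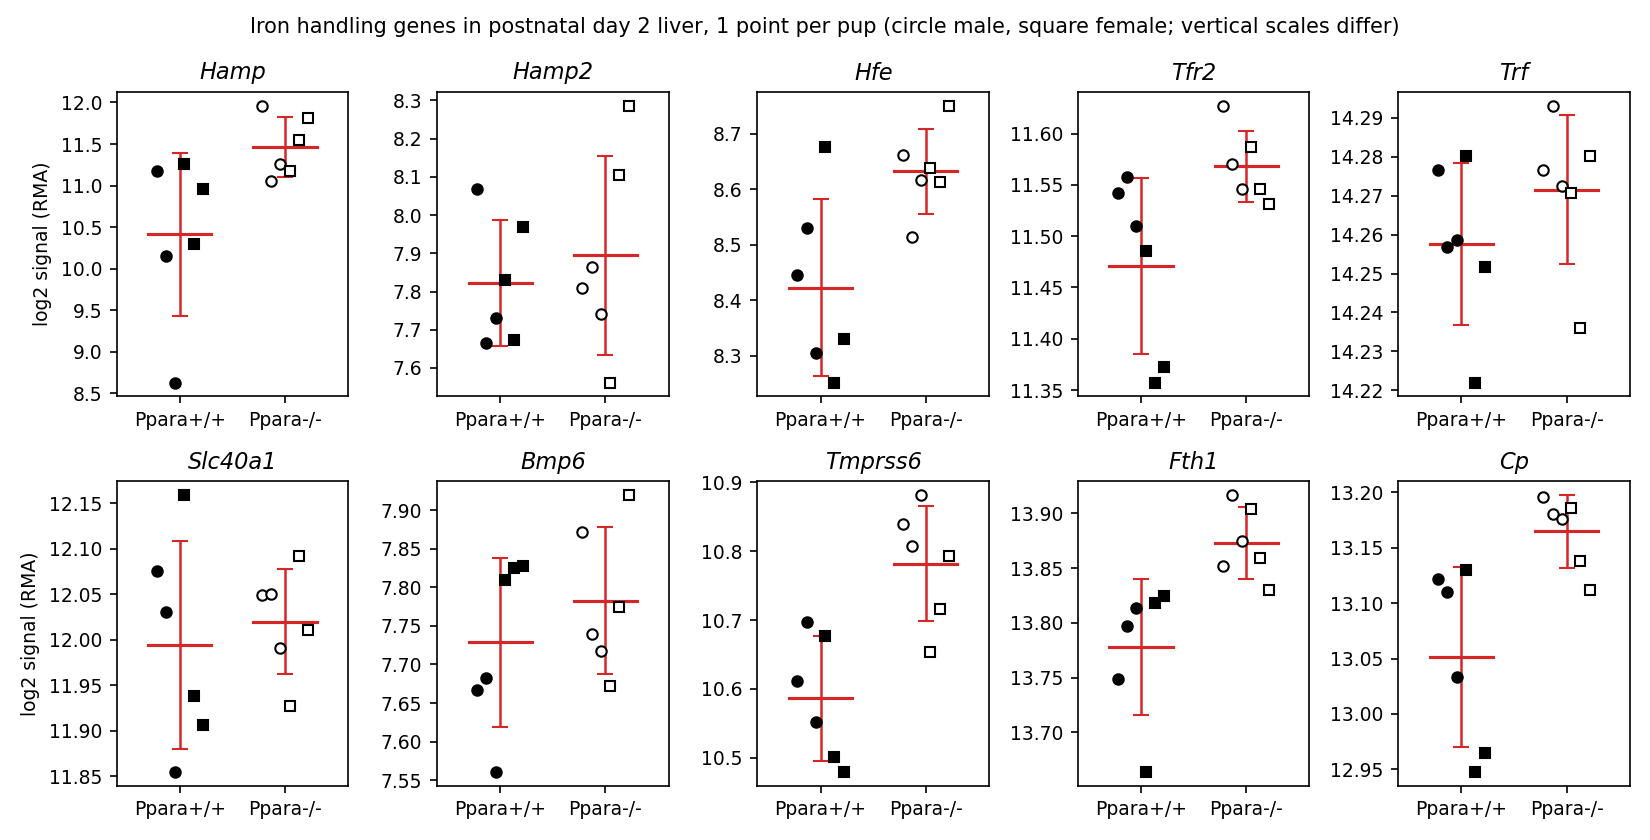
Log2 RMA signal (vertical axes, scales differ between panels) of the 10 iron handling genes in each of the 12 livers. Filled symbols are *Ppara*+/+ and open symbols *Ppara*-/-, with males as circles and females as squares, and red lines and bars give the mean ± SD of 6 pups; only *Fth1* has no overlap between genotypes, and *Hamp* spans 8.63 to 11.96.

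The mouse carries a pair of hepcidin genes, *Hamp*, which encodes the iron-regulating hormone, and the neighbouring *Hamp2*, whose role in iron balance is less clear. Their start regions, taken from RefSeq on GRCm38.p6, are shown because hepcidin is controlled there and because the pair is so alike in sequence. Each holds 250 bases before and 50 bases after the transcription start, on the minus strand, at chr7:30943980-30944279 for *Hamp* and chr7:30924132-30924431 for *Hamp2*. Capitals mark matches to GGCGCC, the core of the BMP-responsive element, and to TTCNNNGAA, the STAT site, with both strands searched.
Hamp: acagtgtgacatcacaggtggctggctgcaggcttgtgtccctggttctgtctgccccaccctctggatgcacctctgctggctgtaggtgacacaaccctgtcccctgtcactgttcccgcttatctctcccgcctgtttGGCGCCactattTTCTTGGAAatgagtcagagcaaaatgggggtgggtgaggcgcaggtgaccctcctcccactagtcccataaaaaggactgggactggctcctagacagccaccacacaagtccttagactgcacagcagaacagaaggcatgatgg
Hamp2: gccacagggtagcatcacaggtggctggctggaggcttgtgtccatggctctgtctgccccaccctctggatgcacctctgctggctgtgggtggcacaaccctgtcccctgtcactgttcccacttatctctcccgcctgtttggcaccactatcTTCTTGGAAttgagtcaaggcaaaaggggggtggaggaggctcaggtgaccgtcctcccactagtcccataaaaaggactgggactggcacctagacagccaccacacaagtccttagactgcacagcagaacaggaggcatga
In a global alignment 276 of 303 columns were identical, 91.1%. *Hamp* holds GGCGCC from -109 to -104 relative to the start, while the aligned bases of *Hamp2* differ by G4A, counted from 1 at the first base of the motif. TTCTTGGAA stands in both, from -97 to -89 in *Hamp* and from -94 to -86 in *Hamp2*. Of 32851 RefSeq start regions of this length 11.9% hold GGCGCC and 8.30% hold TTCNNNGAA. These matches are a description of the letters and do not show binding.

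*Hamp* read a lowest, median and highest log2 signal of 11.05, 11.40 and 11.96 in *Ppara*-/- livers and of 8.63, 10.63 and 11.26 in *Ppara*+/+ livers. All 6 *Ppara*-/- values lay above the *Ppara*+/+ median, 4 of them above every *Ppara*+/+ value, but the groups overlapped. The means were 11.47 ± 0.36 and 10.41 ± 0.98 (SD, n = 6 each), a log2 difference of 1.05 with SE 0.376, or 2.08-fold with a 95% interval from 1.17-fold to 3.68-fold (adjusted p = 0.209 from limma). The low end of the wild type was *Ppara*+/+ replicate 3, a male at 8.63. Without that pup the log2 difference was 0.71 (adjusted p = 0.236), and over all 21 alternatives it ran from 0.71 to 1.28 with none passing.

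*Hamp2* gave a lowest, median and highest signal of 7.56, 7.84 and 8.29 in *Ppara*-/- livers against 7.67, 7.78 and 8.07 in *Ppara*+/+ livers. The groups overlapped over most of their range, and the highest and the lowest of the 12 values were both from *Ppara*-/- pups. The lower signals stood not far above the array medians of 7.16 to 7.20. Its log2 difference was 0.07 with a 95% interval from -0.19 to 0.33 (adjusted p = 0.835 from limma), and it was -0.00527 without *Ppara*-/- replicate 12. Whether the probes fully separate the transcripts of the pair was not tested.

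Among the genes that set hepcidin, *Bmp6*, the ligand that liver endothelium releases when iron is high, read 7.67, 7.76 and 7.92 (lowest, median, highest log2 signal) in *Ppara*-/- livers and 7.56, 7.75 and 7.83 in *Ppara*+/+ livers. The groups overlapped nearly throughout, at signals not far above the array medians of 7.16 to 7.20. Its log2 difference was 0.05 with a 95% interval from -0.07 to 0.17 (adjusted p = 0.71 from limma).

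*Hfe*, the MHC class I-like protein mutated in hereditary hemochromatosis, read 8.51, 8.63 and 8.75 in *Ppara*-/- livers against 8.25, 8.39 and 8.68 in *Ppara*+/+ livers. The highest *Ppara*+/+ value was replicate 7, and 4 of the 6 *Ppara*+/+ values lay below all *Ppara*-/- values. The log2 difference was 0.21 with SE 0.0724, or 1.16-fold (adjusted p = 0.192 from limma). It became 0.26 and passed without *Ppara*+/+ replicate 7 (adjusted p = 0.0395, where the other alternatives in limma ran from 0.0726 to 0.351).

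*Tfr2*, the second transferrin receptor and a partner of HFE in iron sensing, read 11.53, 11.56 and 11.63 in *Ppara*-/- livers and 11.36, 11.50 and 11.56 in *Ppara*+/+ livers. Of the *Ppara*+/+ values 4 lay below all *Ppara*-/- values, the lowest being the females of replicates 8 and 9. The log2 difference was 0.10 with a 95% interval from 0.01 to 0.18 (adjusted p = 0.261 from limma).

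*Tmprss6* encodes matriptase-2, the membrane protease that cleaves hemojuvelin and so holds hepcidin down. It read 10.65, 10.80 and 10.88 in *Ppara*-/- livers against 10.48, 10.58 and 10.70 in *Ppara*+/+ livers. All but 1 of the *Ppara*-/- values lay above every *Ppara*+/+ value, the exception being a female, replicate 10. The means were 10.78 ± 0.08 and 10.59 ± 0.09 (SD, n = 6 each), a log2 difference of 0.20 with SE 0.0468, or 1.15-fold with a 95% interval from 1.07-fold to 1.23-fold. It did not pass (adjusted p = 0.0567 from limma), but did under 6 of 21 alternatives, without *Ppara*+/+ replicate 7 among them (adjusted p = 0.0135). Its adjusted p ran from 0.0135 to 0.14 over all alternatives while the log2 difference stayed between 0.18 and 0.23.

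The carriers and stores followed. *Trf*, transferrin, read 14.24 to 14.29 in *Ppara*-/- livers and 14.22 to 14.28 in *Ppara*+/+ livers, so that the groups coincided. Its log2 difference was 0.01 with a 95% interval from -0.05 to 0.08 (adjusted p = 0.877 from limma). The highest value of any probe set was 14.60, so *Trf* read near the top of the scale.

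*Slc40a1*, ferroportin, the target of hepcidin and the exporter of iron from hepatocytes and Kupffer cells, read 11.93, 12.03 and 12.09 in *Ppara*-/- livers and 11.85, 11.98 and 12.16 in *Ppara*+/+ livers. Here the *Ppara*+/+ values spanned those of the *Ppara*-/- livers at both ends. The log2 difference was 0.03 with a 95% interval from -0.10 to 0.15 (adjusted p = 0.88 from limma), and it was -0.00523 without *Ppara*+/+ replicate 3. These are transcripts, and ferroportin protein, on which hepcidin acts, was not measured.

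*Fth1*, the ferritin heavy chain that oxidizes iron on its way into the store, was the only 1 of the 10 whose genotypes did not overlap. Its values were 13.83, 13.87 and 13.92 in *Ppara*-/- livers and 13.66, 13.81 and 13.83 in *Ppara*+/+ livers, the nearest pups of the groups being 13.83 at 2 decimals in both. Over all genes 2.88% were separated in this direction and 1.43% in the other. The log2 difference was 0.09 with SE 0.0382, or 1.07-fold, and did not pass (adjusted p = 0.273 from limma). Ferritin genes have many near-identical copies in the genome, and how far the probes tell these apart was not tested.

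*Cp*, ceruloplasmin, the copper-bearing ferroxidase of plasma, read 13.11, 13.18 and 13.20 in *Ppara*-/- livers against 12.95, 13.07 and 13.13 in *Ppara*+/+ livers. Of the *Ppara*-/- values 5 of 6 lay above every *Ppara*+/+ value, and replicates 8 and 9 were again the lowest of the *Ppara*+/+ livers. The log2 difference was 0.11 with SE 0.0401, or 1.08-fold with a 95% interval from 1.02-fold to 1.15-fold (adjusted p = 0.204 from limma). *Cp* is also an acute phase protein. In a list of 18 measured acute phase proteins of 19 listed 2 rose (11.1%), *Orm1* (log2 difference 1.53) and *Saa3* (0.66). None fell, and the median was 0.05, where 1.99% of all genes rose and 1.12% fell. Of the 18 only 15 had mean signals above every array median.

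**Figure D2:**
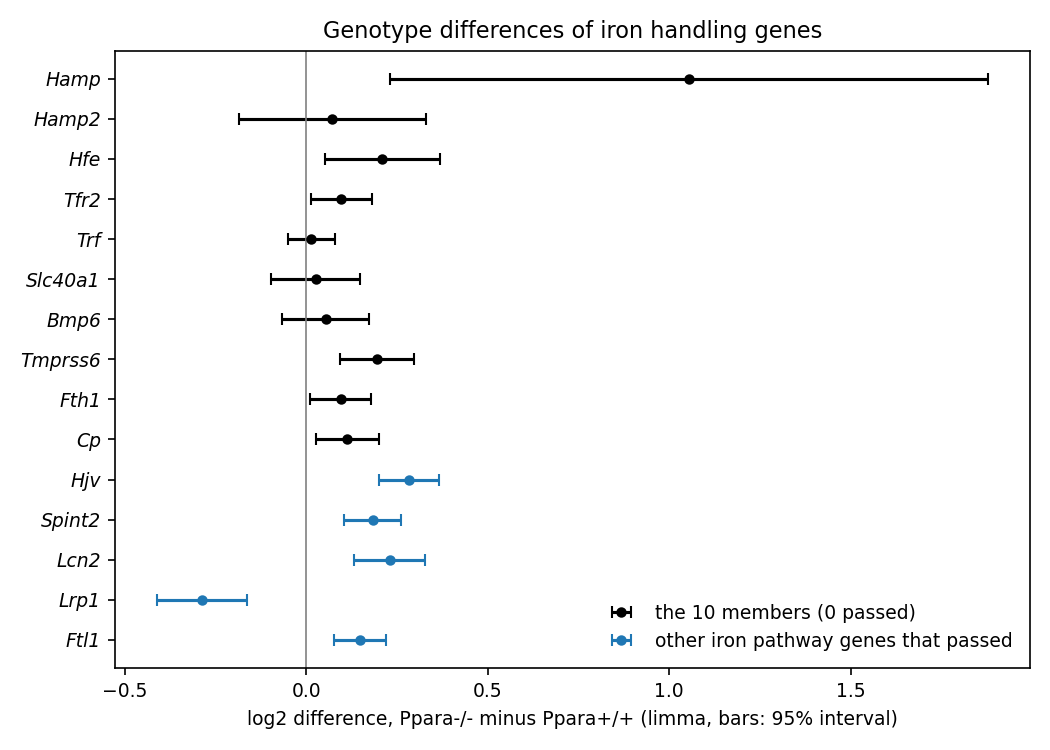
Log2 difference between *Ppara*-/- and *Ppara*+/+ livers (horizontal axis, limma estimate with its 95% interval, 6 pups each) for the 10 iron handling genes in black and for the 5 other iron pathway genes that passed in blue. The interval of *Hamp* is the widest, from 0.23 to 1.88, and an interval clear of 0 is not yet a pass after adjustment over all probe sets.

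In the wider iron pathway 5 of 76 measured genes, of 83 listed, passed between genotypes: *Hjv*, *Spint2*, *Ftl1* and *Lcn2* rose and *Lrp1* fell in *Ppara*-/- livers. That is 5.26% higher and 1.32% lower, where all genes gave 1.99% and 1.12%. The median log2 difference of the 76 was 0.02 against -0.01 over all genes.

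*Hjv*, which encodes hemojuvelin, the coreceptor through which BMP signals reach *Hamp*, read 11.20, 11.31 and 11.37 in *Ppara*-/- livers and 10.96, 11.02 and 11.07 in *Ppara*+/+ livers. The groups did not overlap, and the spread within each was narrow (SD 0.06 and 0.04, n = 6 each). It rose 1.22-fold, a log2 difference of 0.28 with SE 0.038 (adjusted p = 0.0019 from limma), with 0.28 in males and 0.28 in females. It passed under every alternative but the exact rank test of Mann and Whitney, which called no gene at all after adjustment (smallest adjusted p = 0.0691).

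*Spint2*, a Kunitz-type inhibitor of membrane serine proteases with matriptase-2 among its targets, read 10.09, 10.17 and 10.22 in *Ppara*-/- livers against 9.92, 9.98 and 10.01 in *Ppara*+/+ livers, again without overlap. It rose 1.14-fold (log2 difference 0.18, SE 0.0356, adjusted p = 0.0194 from limma). The call was lost under 5 of 21 alternatives, with the adjusted p up to 0.06 in limma.

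Of 21 measured genes in the BMP-SMAD list, *Hjv* and *Spint2* were the 2 that rose, none fell, and the median log2 difference was 0.08. The estimates of 17 were above 0 and those of 4 below, the lowest being *Smad9* at -0.21 (adjusted p = 0.172 from limma). The SMAD-induced feedback inhibitors stood above 0 without passing, *Smad7* at 0.17 (adjusted p = 0.281) and *Smad6* at 0.11 (adjusted p = 0.216), as did *Id1*, another gene switched on by BMP signals, at 0.15 (adjusted p = 0.511). *Bmp2*, the other endothelial ligand for hepcidin, stood at 0.07 (adjusted p = 0.628 from limma).

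Among 12 genes of IL-6 and STAT3 signalling and other regulators of hepcidin none passed, and the median was 0.04. The largest difference was that of *Creb3l3*, a membrane-bound transcription factor of the endoplasmic reticulum that can switch on *Hamp*. Its signals ran from 10.57 to 10.74 in *Ppara*-/- and from 10.71 to 10.87 in *Ppara*+/+ livers, a log2 difference of -0.13 (adjusted p = 0.158 from limma).

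In the list of iron uptake, storage and oxidation 1 of 19 measured genes rose and none fell. *Ftl1*, the ferritin light chain, read 13.68, 13.72 and 13.73 in *Ppara*-/- livers and 13.50, 13.55 and 13.62 in *Ppara*+/+ livers, without overlap. It rose 1.11-fold (log2 difference 0.15, SE 0.033, adjusted p = 0.0411 from limma). This call was the least firm of the 5 and was lost under 14 of 21 alternatives, among them both rescalings of the arrays and the removal of any array other than *Ppara*+/+ replicate 7. Its near-identical copies add the same uncertainty as for *Fth1*. The largest difference in the list was that of *Slc39a14*, the carrier ZIP14 that takes up iron not bound to transferrin, at 0.24 (SE 0.0791, adjusted p = 0.176). *Tfrc*, the first transferrin receptor and abundant on erythroid precursors, stood at -0.20 (adjusted p = 0.321), and fell only without *Ppara*+/+ replicate 7.

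Of 13 measured genes listed under heme and hemoglobin scavenging, with the siderophore binder *Lcn2* counted among them, 1 rose and 1 fell. *Lcn2*, lipocalin 2, which binds iron-laden siderophores of bacteria, ran from 12.65 to 12.89 in *Ppara*-/- livers and from 12.44 to 12.60 in *Ppara*+/+ livers and rose 1.17-fold (SE of the log2 difference 0.0445, adjusted p = 0.0189 from limma). *Lrp1*, the endocytic receptor for the heme-hemopexin complex and for many other ligands, ran from 11.58 to 11.79 in *Ppara*-/- and from 11.79 to 12.06 in *Ppara*+/+ livers. It fell by 0.29 on the log2 scale, 1.22-fold (SE 0.0566, adjusted p = 0.0211 from limma). *Lcn2* lost its call under 4 and *Lrp1* under 6 of the 21 alternatives.

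None of 11 measured genes of mitochondrial iron and iron-sulfur clusters passed, and their median was -0.08. At an unadjusted p under 0.05 there were 5 lower and 0 higher, against 7.89% and 9.27% of all genes. All 12 measured erythroid markers were below 0 as well, 8 of them at an unadjusted p under 0.05, and their part in these values was not tested. *Abcb10*, a mitochondrial transporter needed for heme synthesis in erythroid cells, had the largest difference at -0.24 (adjusted p = 0.169). It fell only with array weights and without *Ppara*+/+ replicate 7. Its *Ppara*+/+ values were 10.93 or above in 5 pups and 10.63 in replicate 7.

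Pups of 1 genotype differed more in *Hamp* than in almost any other gene. Its SD within genotype, pooled over both, was 0.742 on the log2 scale, larger than that of 99.8% of the 19938 genes, and the *Ppara*+/+ pups spanned 6.19-fold against 1.87-fold in the *Ppara*-/- pups. That difference in spread was not tested. *Hamp2* came next among the 10 (pooled SD 0.218, larger than 96.4% of genes), while *Trf* was among the steadiest genes of all (0.02, larger than 0.0451%). *Hfe*, *Bmp6*, *Slc40a1* and *Tmprss6* lay in between (0.125, 0.103, 0.0904 and 0.0872). The signals of *Trf*, 14.22 to 14.29, were near the highest value of any probe set, 14.60. Whether its small spread came from this was not tested.

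The genes whose signals moved most like *Hamp* from pup to pup were ranked by Pearson's r over the 12 arrays, after the mean of each genotype had been subtracted. Of 19937 genes the first 5 were *Dnajc13*, which acts in endosomal sorting (r = 0.932), the long noncoding RNA *Lncpint* (0.882), the homeobox gene *Prrx1* (0.87), *Apoa5*, an apolipoprotein that lowers plasma triglycerides (0.83), and *Bmp2* (0.828). As the top of a ranking they are high by selection, and they are given as a description. Without the pups farthest from the median of *Hamp*, *Ppara*+/+ replicates 3 and 7, r was 0.895 for *Dnajc13* and from 0.595 to 0.659 for the other 4. Spearman's rho ran from 0.713 to 0.867.

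*Bmp2* had been listed with the BMP-SMAD genes, and of the 21 genes in that list 7 had r above 0.5 with *Hamp*, 33.3% against 5.49% of all genes. Without *Ppara*+/+ replicates 3 and 7 there were 2 of these, *Bmp2* and *Id1*, or 9.52% of the list against 6.48% of all genes, so the count of 7 rested on that pair of pups. The median r of the list was 0.394 over all 12 arrays and 0.116 without the pair, where all genes gave -0.00820 and 0.03. That of the list of IL-6, STAT3 and other regulators was 0.372 and 0.298. In this second list 1 of 12 genes had r above 0.5 over all arrays (8.33%), and 2 others without the pair (16.7%). *Id1*, named here after its value was seen, stood at r = 0.71 and rho = 0.86, and at r = 0.793 without the same pair of pups. *Bmp6* stood at r = 0.696, and at 0.471 without them. Outside both lists *Fbxl5* stood at r = 0.671 and 0.636, *Hamp2* at 0.458 and 0.667, and *Steap3* at -0.75 and -0.716, in the same order. All these values share the same 12 arrays and the erythroid, Kupffer and endothelial content of each liver, whose part in them was not tested. The plot of deviations from the genotype mean shows *Ppara*+/+ replicate 3 alone at the low end of *Hamp*.

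**Figure D3:**
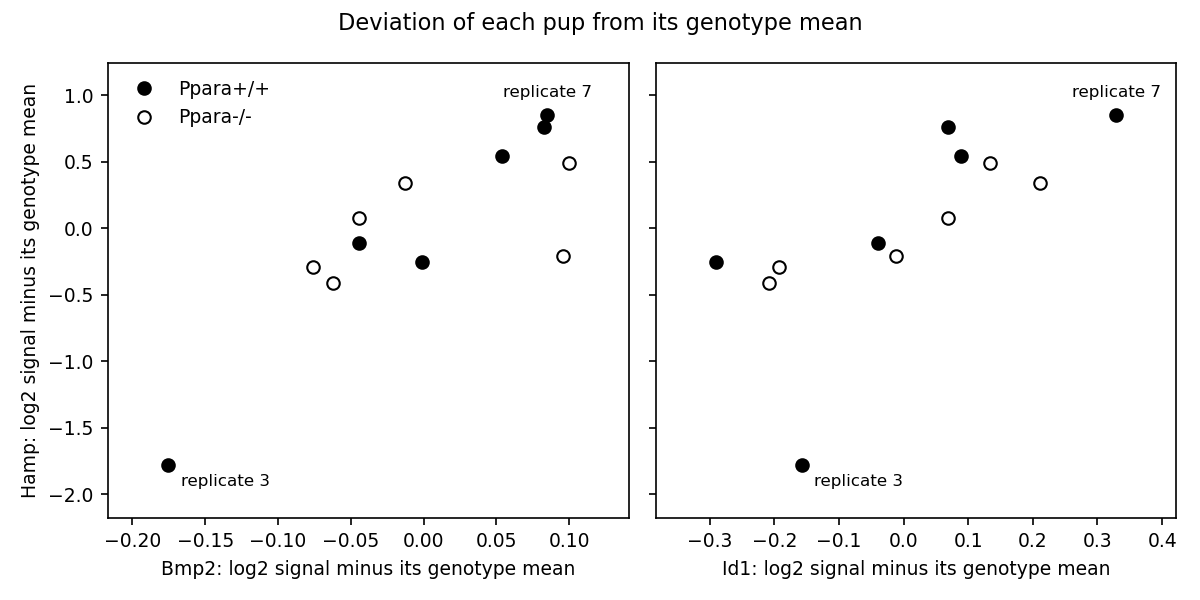
Deviation of *Hamp* from its genotype mean (vertical axis, log2) against that of *Bmp2* (left) and *Id1* (right) in the 12 livers, filled points *Ppara*+/+ and open points *Ppara*-/-. *Ppara*+/+ replicates 3 and 7 are labelled, and Pearson's r over all 12 is 0.828 for *Bmp2* and 0.71 for *Id1*.

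Markers of the other cells of the neonatal liver did not pass, and the direction of their estimates differed between cell types. All 12 measured erythroid markers, of 20 listed, were below 0 (median log2 difference -0.18), all 14 Kupffer cell markers of 15 were above 0 (median 0.19), and all 12 endothelial markers were above 0 (median 0.13). The 10 hepatocyte markers had a median of 0.02. Every marker in these lists had a mean signal above every array median, and the lowest single value was 6.87 for *Cd163*. The summed linear signal of the erythroid markers ran from 30112 to 39199 in *Ppara*-/- and from 32736 to 41700 in *Ppara*+/+ livers. For Kupffer markers the sums ran from 20840 to 23122 and from 18148 to 22632, and for endothelial markers from 15437 to 16727 and from 13859 to 15804. Those of hepatocyte markers ran from 120123 to 124580 and from 118417 to 122829. The ranges of the genotypes overlapped in each list. In bulk liver, fewer cells of a type and less RNA per cell cannot be told apart.

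*Ppara*+/+ replicate 7 had the lowest erythroid and the highest Kupffer and endothelial sum of its genotype. Among the *Ppara*+/+ livers it also had the lowest *Fth1* (13.66) and the highest *Hamp* (11.26), *Hfe* (8.68), *Slc40a1* (12.16) and *Cp* (13.13). Without it 3 erythroid markers fell, 5 Kupffer and 3 endothelial markers rose, and *Hfe* and *Tmprss6* passed among the 10 iron genes, where over all genes 3.6% rose and 1.75% fell in the same fit. From pup to pup within a genotype *Fth1* was higher where the erythroid sum was higher (r = 0.84, rho = 0.79, and r = 0.573 without the 2 pups farthest from the median sum, n = 12), and *Hfe* was lower (r = -0.737, and -0.338 without them). *Tmprss6* was lower too where the erythroid sum was higher (r = -0.623, and -0.679 without them). Of the genes that passed, so were *Ftl1* (r = -0.678, rho = -0.818, and r = -0.549 without them) and *Lrp1* (r = -0.603, rho = -0.657, and r = -0.606 without them). Between genotypes the erythroid markers and *Lrp1* stood below 0, and *Fth1*, *Hfe*, *Tmprss6* and *Ftl1* above. *Slc40a1* varied with the endothelial sum (r = 0.814, rho = 0.755, and 0.68 without the farthest pair). It also varied with the Kupffer sum (r = 0.665, and 0.761 without the farthest pair) and opposite to the erythroid sum (r = -0.667, and -0.606). *Cp* varied with the sums of acute phase (r = 0.853), hepatocyte (r = 0.829), endothelial (r = 0.826) and Kupffer markers (r = 0.684). These are descriptions over 12 arrays, and the part of cell content in the genotype differences was not tested.

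**Figure D4:**
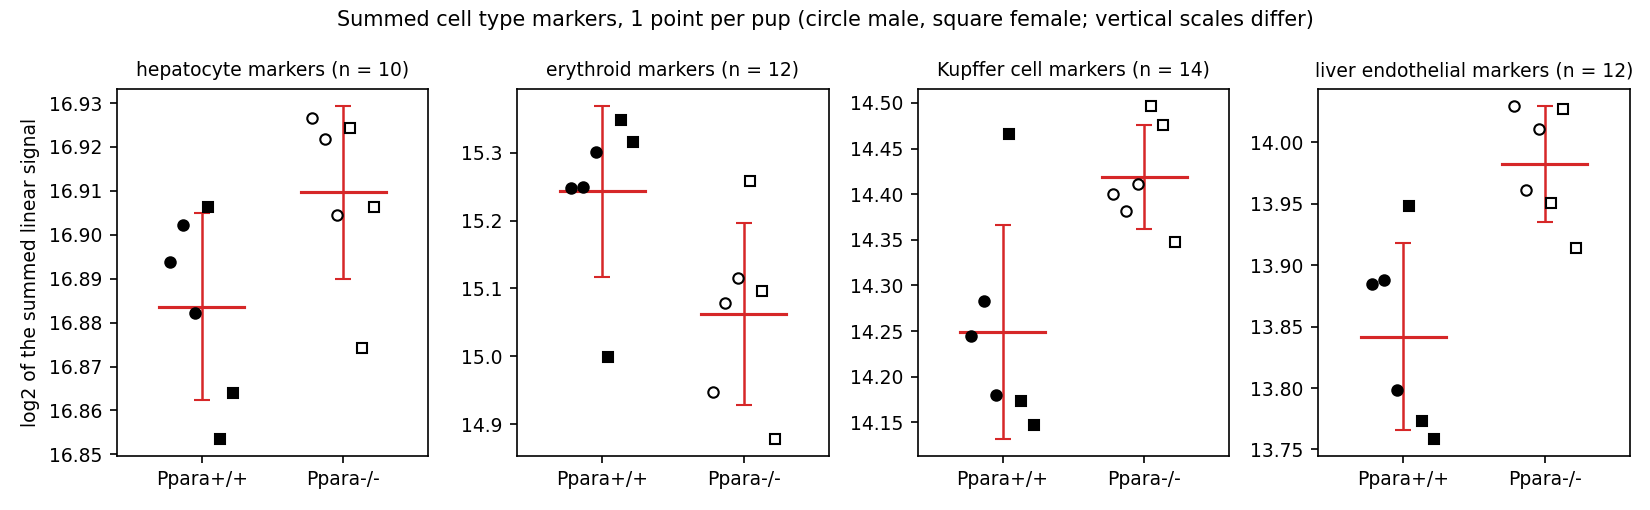
Log2 of the summed linear signal (vertical axes, scales differ) of the measured markers of hepatocytes, erythroid cells, Kupffer cells and liver endothelium in each liver, filled *Ppara*+/+, open *Ppara*-/-, circles males, squares females, red lines mean ± SD of 6 pups. The 1 *Ppara*+/+ female that lies lowest for erythroid and highest for Kupffer and endothelial markers is replicate 7.

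Sex was tested in the same fit, since hepcidin genes differ by sex in adult mice. None of the 10 genes differed between males and females in limma (adjusted p = 0.9996 for each), where 0.0401% of all genes did, and 0 had an unadjusted p under 0.05, where 2.78% of all genes had. *Hamp* was lower in males by a log2 difference of -0.47 with SE 0.376, and *Hamp2* by -0.09 with SE 0.118. For an interaction of genotype and sex 0 of the 10 passed, as did 0% of all genes, and 0 had an unadjusted p under 0.05 against 1.79% of all genes. The genotype difference of *Hamp* was 1.44 in males and 0.67 in females on the log2 scale, an interaction of 0.77 with SE 0.751. Of the other genes *Tfr2* (0.08, SE 0.0384), *Tmprss6* (0.09, SE 0.0468) and *Bmp6* (-0.10, SE 0.0545) had the largest sex differences relative to their errors, male minus female.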

How the data were processed

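Liver RNA of 12 P2 pups was labelled by the authors and hybridized to Affymetrix MoGene 1.0 ST arrays. The authors normalized and summarised the arrays with RMA (version not given in the sources used here) and deposited log2 signals for each probe set, which were used unchanged. RNA had an integrity number above 8 by the methods. With limma 3.58.1 under R 4.3.3, a linear model with genotype and sex was fitted to each of 35556 probe sets by lmFit and eBayes (9 residual and 2.49 prior degrees of freedom), and p-values were adjusted by Benjamini-Hochberg across the whole array. Where several probe sets named only 1 gene, the brightest on average stood for it. The interaction with sex was fitted in the same way. Intervals are at 95% from the moderated fit. The number of arrays limits the precision.

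The genes, pathway lists, marker lists and alternatives were chosen with earlier results of these data known. Named were the 10 members, *Ppara*, every pathway gene that passed, the largest difference of each pathway list and the 5 genes most like *Hamp*. Other genes were named after their values were seen. Alternatives were a fit without sex, median centring, quantile normalization, a filter at the 40th percentile of mean signal, a table held to single-gene probe sets, array weights, an intensity trend with robust variances, the exact Mann-Whitney test, averaging the probe sets that name a gene, and leaving out each array. The fit was tested on simulated data. RefSeq start regions (GRCm38.p6) were found for 7 of the 10 genes, and for these E-box, PPRE and iron-responsive motifs were also searched. No PPRE, a direct repeat of AGGNCA spaced by 1 base, lay in them (0.381% of all start regions), and *Bmp6* held the E-box CACGTG (7.15%). *Hamp*, *Hfe* and *Tfr2* held CAGTGN on the sense strand (34.6%). These matches lay before the start in *Hamp* (-249 to -244) and *Hfe* (-59 to -54), outside the transcript. In *Tfr2* 1 lay after a start (38 to 43) and 1 before another start (-218 to -213). They describe letters and do not show a working element. Biopython 1.88 aligned the hepcidin start regions.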

Additional observations from a re-analysis of the deposited data

How the results depend on the processing

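Of the 10 iron handling genes 0 were lower under every alternative, and 0 differed by sex or showed an interaction under any run for those tests. The number higher, 0, became 1 (*Tmprss6*) with dim probe sets left out, with only probe sets of 1 gene, with a robust variance trend, with array weights and with the mean of the probe sets of a gene, and ran from 0 to 2 when each array was left out, 2 being without *Ppara*+/+ replicate 7. Of the other pathway genes 4 were higher, with a range from 1 to 5 on leaving out arrays, 1 being without *Ppara*-/- replicate 11 or *Ppara*+/+ replicate 3, 2 without any of *Ppara*-/- replicates 4 and 5 and *Ppara*+/+ replicate 2, and 0 by the exact Mann-Whitney test. The number lower, 1, became 2 with array weights and 0 by the Mann-Whitney test, and ran from 0 to 3, with 0 on dropping any of *Ppara*-/- replicates 10 and 11 and *Ppara*+/+ replicates 1, 2 and 8, and 3 without *Ppara*+/+ replicate 7. Only *Hjv* passed under all alternatives but the Mann-Whitney test. Leaving out arrays moved the log2 difference of *Hamp2* from -0.00527 (without *Ppara*-/- replicate 12) to 0.156 and that of *Slc40a1* from -0.00523 (without *Ppara*+/+ replicate 3) to 0.063, the 2 genes among the 10 whose direction turned. Replicate numbers are unique across genotypes. No analysis paired by litter was possible because no label ties a pup to its litter.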

Other observations

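Over the 45 pairs of the 10 iron handling genes, Pearson's r of the deviations from the genotype mean was above 0.5 for 14 (31.1%) and below -0.5 for 5 (11.1%), over the same 12 arrays. Over all pairs of genes 10.1% were above 0.5 and 9.22% below -0.5. When the 2 pups farthest from the median of the first gene of a pair were left out, 5 of the 14 were still above 0.5 and 3 of the 5 below -0.5. The members of a pair also share the cell content of each liver, whose part was not tested. *Tfr2* and *Cp*, both made by hepatocytes, had the largest (r = 0.87, rho = 0.832, and 0.68 without the 2 pups farthest from the median of *Tfr2*). *Hfe* and *Fth1* ran opposite to each other (r = -0.855, rho = -0.832, and -0.691 without the farthest pair), as did *Slc40a1* and *Fth1* (r = -0.77, and -0.573 without the farthest pair). *Hamp* and its target *Slc40a1* stood at r = 0.651, and at 0.221 without *Ppara*+/+ replicates 3 and 7. These values are a description of 12 livers.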
